A study of Mus musculus with 8 samples.

Results

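The genes described here are 39 interferon-stimulated genes that lie outside the large interferon-induced families, that is, outside the Ifit, Oas, Gbp, IRG, Ifi200, Trim, Parp, Slfn, Mx and Ifitm genes. They were chosen by symbol, and all 39 were found among the 54532 Ensembl genes of the deposited count files. Of these, 38 passed the filter on low counts and were tested among 17055 genes. The exception was Phf11a, a PHD finger gene with at most 10 counts in any library.

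The measurements come from poly(A) RNA of primary mouse islets, the clusters of hormone-making cells in the pancreas, after 3 h of culture with a STING agonist or its solvent. The mice were wild type or Sting-/- and between 25 and 30 weeks old, and islets were picked by hand after collagenase digestion and rested overnight. The 4 groups were wild type with DMSO (WT-DMSO), wild type with DMXAA at 50 µg/mL (WT-DMXAA), Sting-/- with DMSO (KO-DMSO) and Sting-/- with DMXAA at 50 µg/mL (KO-DMXAA), with 2 libraries each. The labels give neither the Sting allele nor the number of mice behind a library, so the p-values cover the spread from library to library alone, and that spread may be technical.

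Total counts lay between 15624020 and 19601850 per library, so that 1 count was worth between 0.0484 and 0.0667 CPM (the count over the library size after TMM scaling). The insulin gene Ins2 took between 11.5% and 18.6% of each library. The targeted gene Sting1 had 39 and 41 counts in the WT-DMSO libraries, 23 and 39 in WT-DMXAA, 48 and 19 in KO-DMSO and 35 and 27 in KO-DMXAA. The knockout label went with no lower Sting1 count, with a log2 difference under DMSO of 0.03 (SE 0.47, edgeR adjusted p = 0.984), so KO here means a library labelled knockout. Every direction drawn from genotype rests on those labels. Acinar markers, from exocrine tissue carried along, summed to between 382 and 7203 CPM per library, endothelial markers to between 741 and 1461 CPM and fibroblast markers to between 164 and 430 CPM. Macrophage markers summed to between 131 and 249 CPM and lymphocyte markers to between 8.86 and 91.0 CPM, and no marker on these lists was at 0 in all 8 libraries.

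DMXAA binds mouse STING, the adaptor of cytosolic DNA sensing, and STING then activates the kinase TBK1 and the factor IRF3, which turn on interferon beta. Secreted interferon binds the receptor IFNAR, the Janus kinases JAK1 and TYK2 phosphorylate STAT proteins, and these join IRF9 in ISGF3, the complex that binds interferon-stimulated response elements. The genes switched on include sensors and processors of RNA, nuclear body proteins, restriction factors, ubiquitin ligases and surface proteins, and some can also be induced by IRF3 directly.

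The core of that response element was looked for around the transcription starts of these genes, since it is the sequence through which ISGF3 and the IRF factors bind. RefSeq windows of 300 bases (GRCm38.p6, 250 bases before the start and 50 from it) were matched by symbol for 34 of the 39 genes. Rtp4, Ifi27, Ifi27l2a, Ly6e and Tor3a had no window. It was searched as GAAA, any 2 bases and GAAA again, on both strands, and overlapping matches were counted. It was present for 11 of the 34 genes (32.4%), against 1079 of all 27025 genes in the table (3.99%). The 34 genes had 53 windows, and 13 of them held a match, against 1131 of all 32851 windows (3.44%). A match describes letters and does not show that a factor was bound.

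Matches that lay fully before the start are shown with their surroundings, 5′ to 3′ on the strand of the gene, because the spacing and strand of the motif can be read from them. Capitals mark the motif or its reverse complement.
Apol9a, chr15:77411117-77411146, minus strand: gtgagacTTTCAGTTTCCATTTCccagttg
Apol9b, chr15:77729028-77729057, plus strand: gtgagacTTTCAGTTTCCATTTCccagttg
Phf11a, chr14:59297523-59297571, minus strand: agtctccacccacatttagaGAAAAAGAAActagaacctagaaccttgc
Phf11b, chr14:59341352-59341400, minus strand: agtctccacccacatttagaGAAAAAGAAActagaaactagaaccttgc
Ddx60, chr8:61928014-61928086, plus strand: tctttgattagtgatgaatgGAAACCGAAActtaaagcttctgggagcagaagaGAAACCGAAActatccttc
Lgals9, chr11:78984950-78984999, minus strand: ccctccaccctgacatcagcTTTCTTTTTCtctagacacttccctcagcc
Tdrd7, chr4:45972086-45972135, plus strand: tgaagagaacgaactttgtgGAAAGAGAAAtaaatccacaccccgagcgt
Mitd1, chr1:37890619-37890661, minus strand: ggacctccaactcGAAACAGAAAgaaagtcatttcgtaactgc
Apol9a and Apol9b shared all 30 bases, with a pair of overlapping matches each. These sites lie before both RefSeq starts of each gene but overlap an exon of the GENCODE annotation. Phf11a and Phf11b differed at 1 of 49 bases, C37A, counted from the 5′ end of the stretch with the Phf11a base first. Ddx60 carried 2 matches in the same orientation. Eif2ak2, Ogfr and Shisa5 had a match only after the start, and Lgals9 had a further one there. The matches of Tdrd7 and Shisa5 belong to a later start of the gene, and the windows at their first starts held none.

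**Figure D1:**
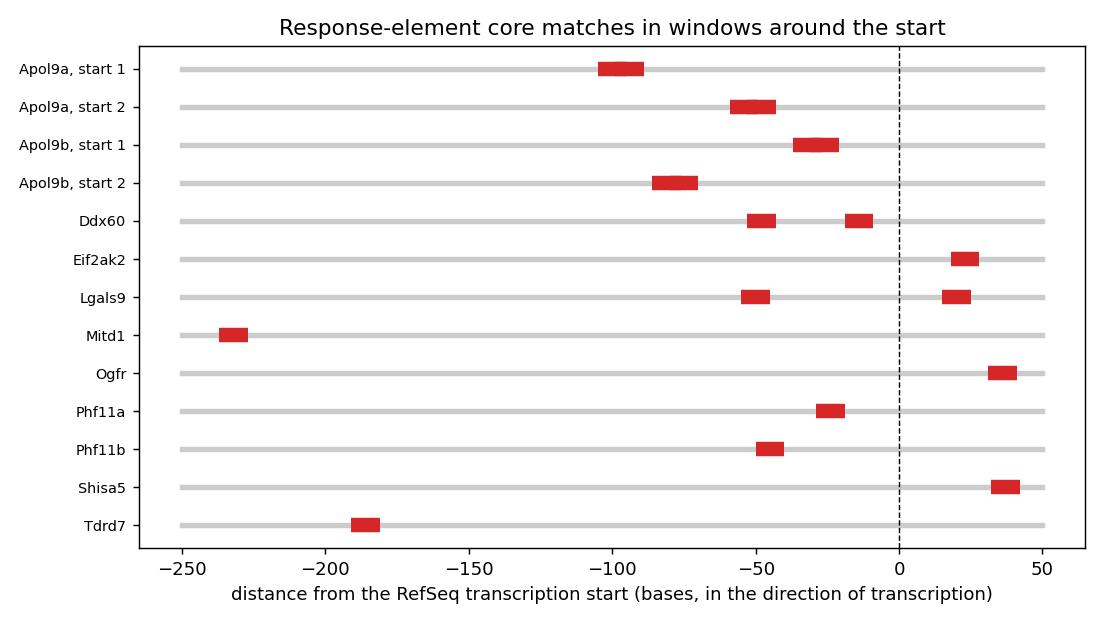
Positions of matches to the response-element core (red) in RefSeq windows from 250 bases before to 50 bases after the transcription start (grey), 1 row per window that holds a match. All matches of Apol9a, Apol9b, Ddx60, Phf11a, Phf11b, Mitd1 and Tdrd7 lie before the start, and those of Eif2ak2, Ogfr and Shisa5 after it.

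The first question was which of these genes DMXAA raised in WT islets within 3 h. Of the 38 tested, 21 rose and none fell by edgeR's quasi-likelihood test with Benjamini-Hochberg adjustment over all genes. Over all genes tested 1.11% rose and 0.375% fell. The median log2 fold change was 0.82, against -0.00066 over all genes. An estimate of at least 2-fold was found for 16 of the 38 and for 617 of all 17055 genes. Both DMXAA libraries lay above both DMSO libraries for 31 of the 38 genes, an arrangement found for 22.5% of all genes tested, and the reverse held for 0 of 38 (23.9% of all). For 27 of 38 genes both WT-DMXAA libraries were above the other 6, as for 7.17% of all genes. The summed level of the 39 genes was 2029 and 1950.4 CPM in WT-DMSO and 2944 and 3294 CPM in WT-DMXAA. In such bulk samples more responding cells cannot be told apart from more RNA per cell. The count was 10 without WT-DMSO replicate 1, 12 and 9 without WT-DMXAA replicate 1 or 2, and 16 to 23 without any other single library. Znfx1, Helz2, Sp100, Sp110, Daxx, Phf11d, Samd9l and Rtp4 passed in all 8 of those fits. With the 4 WT libraries fitted alone, Tor3a, Samhd1, Ogfr, Mov10, Lgals9, Ifi35 and Phf11b no longer passed, with edgeR adjusted p from 0.0607 to 0.163.

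**Figure D2:**
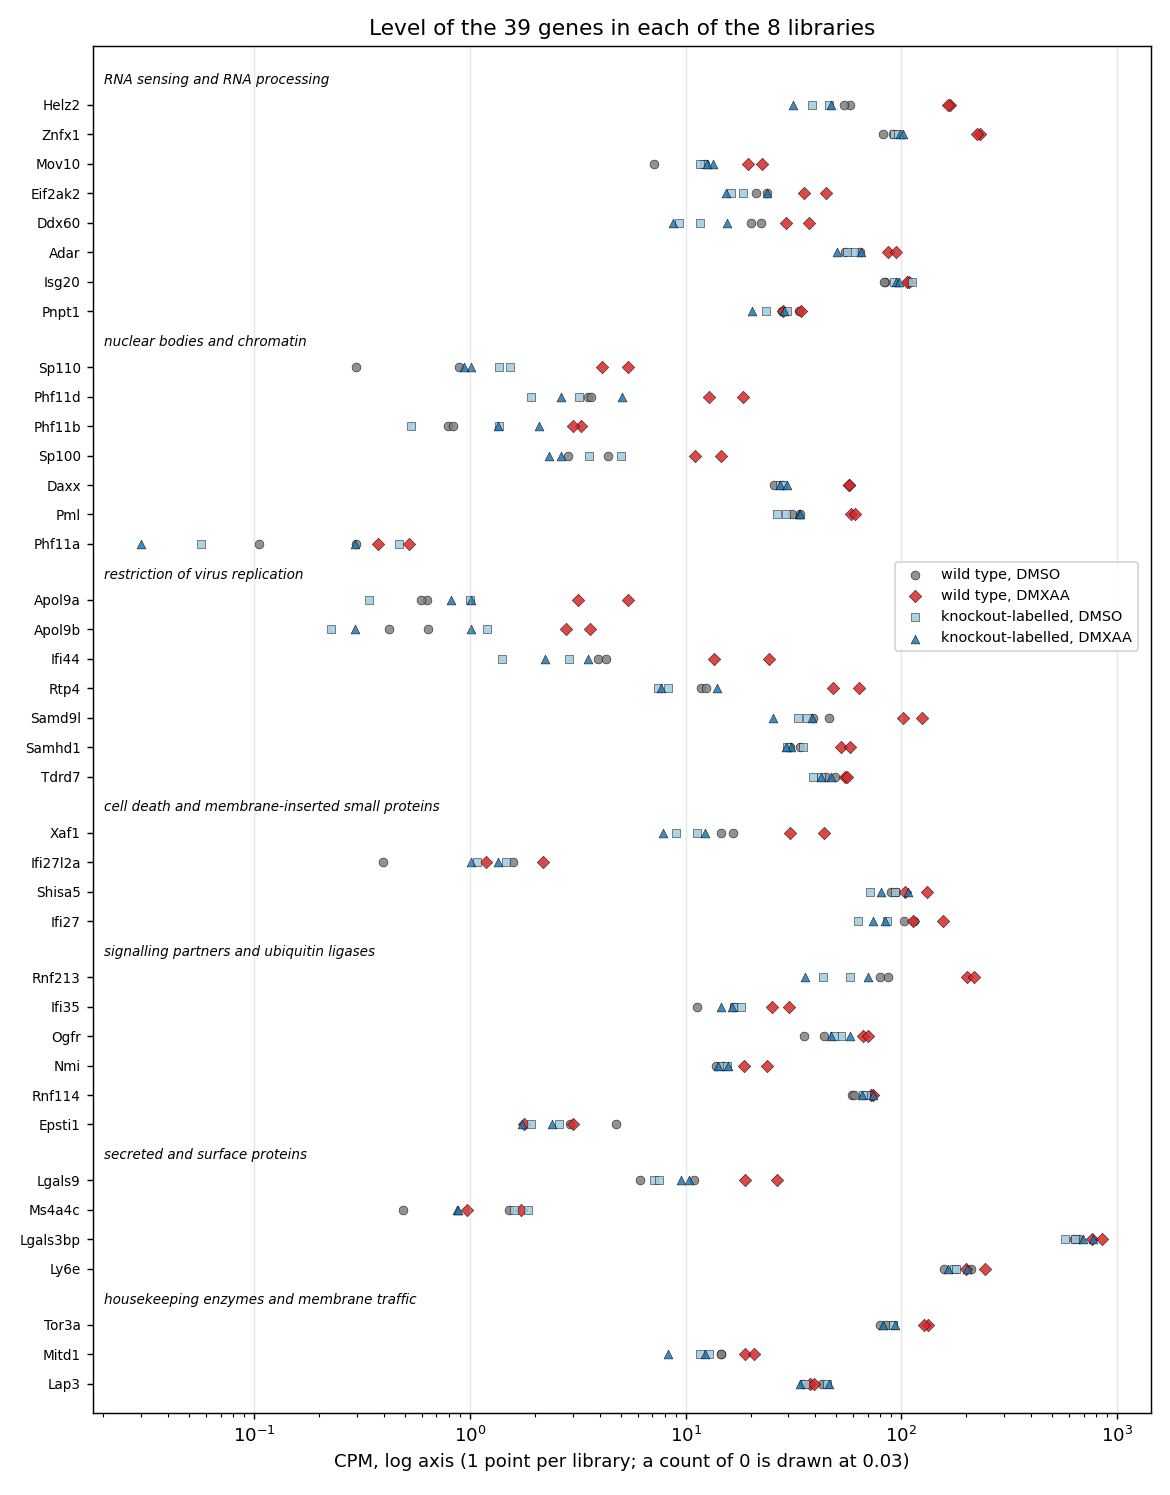
CPM (log axis) of the 39 genes in each of the 8 libraries, 1 point per library, ordered by role and then by the WT effect. The WT-DMXAA libraries (red diamonds) are the top 2 for 27 genes, and Lgals3bp is the most abundant at 575 to 857 CPM.

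Of 8 genes for RNA sensors and RNA-processing enzymes, 3 rose. Over all genes tested 1.11% rose, the share to set beside this count and that of each role below. All 8 estimates were positive, as were 8515 of all 17055. An unadjusted edgeR p under 0.05 was found for 7 of the 8 and for 2025 of all genes. Znfx1 (chromosome 2, 167035793 to 167063015), a helicase that senses double-stranded RNA at mitochondria, was at 82.6 and 91.9 CPM in the WT-DMSO libraries, 233 and 224 CPM in WT-DMXAA, 92.4 and 97.0 CPM in KO-DMSO and 98.2 and 102 CPM in KO-DMXAA. Its 2 WT-DMXAA libraries stood apart from the other 6, which spanned 82.6 to 102 CPM (log2 fold change 1.39, SE 0.14, edgeR adjusted p = 6.01e-05). Helz2, a helicase and nuclear receptor co-activator, was at 57.7 and 54.2 CPM in the WT-DMSO libraries, 168 and 165 CPM in WT-DMXAA, 46.2 and 38.6 CPM in KO-DMSO and 47.2 and 31.4 CPM in KO-DMXAA. On the log2 scale it rose by 1.57 (SE 0.18, edgeR adjusted p = 0.000256), with the groups far apart. Mov10, an RNA helicase that restricts retroelements, had 7.15 and 12.3 CPM in the WT-DMSO libraries, 19.4 and 22.6 CPM in WT-DMXAA, 12.2 and 11.7 CPM in KO-DMSO and 13.4 and 12.6 CPM in KO-DMXAA. It rose by 1.11 (adjusted p = 0.0291), a call lost without WT-DMSO replicate 1 (0.226), WT-DMXAA replicate 1 or 2 (0.0881 and 0.266) or KO-DMSO replicate 1 or 2 (0.0656 and 0.0668). Here and below, the value in parentheses after a library is the edgeR adjusted p of the fit without it.

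Eif2ak2 and Adar did not pass by edgeR over all 8 libraries but did in other fits. Eif2ak2 encodes PKR, the kinase that halts translation on double-stranded RNA, and was at 23.8 and 21.2 CPM in the WT-DMSO libraries, 35.5 and 44.9 CPM in WT-DMXAA, 18.4 and 16.2 CPM in KO-DMSO and 23.9 and 15.3 CPM in KO-DMXAA. Its WT libraries did not overlap between treatments (log2 fold change 0.84, SE 0.21, edgeR adjusted p = 0.084), and it passed without KO-DMXAA replicate 1 or 2 (0.0231 and 0.0227), with DESeq2 (0.0212) and with no filter on low counts (0.0136). Adar, the enzyme that converts adenosine to inosine in double-stranded RNA, was at 54.7 and 64.5 CPM in the WT-DMSO libraries, 87.1 and 94.6 CPM in WT-DMXAA, 60.4 and 56.2 CPM in KO-DMSO and 64.8 and 50.4 CPM in KO-DMXAA. Here too the WT-DMXAA libraries were the highest 2 (log2 fold change 0.61, SE 0.16, edgeR adjusted p = 0.113), and the test was passed without WT-DMSO replicate 2 (0.0409) or KO-DMXAA replicate 1 or 2 (0.0472 and 0.043) and with DESeq2 (0.0386). Reads of Adar and of the oppositely oriented Chrnb2, whose exons overlap, cannot be told apart if strand was not counted. The same holds for Znfx1 with Zfas1, Rnf114 with Spata2, Mitd1 with Lipt1 and Rnf213 with A930037H05Rik.

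The other 3 members of the group did not pass either. Ddx60, a cofactor of RIG-I, was at 22.3 and 20.1 CPM in the WT-DMSO libraries, 29.3 and 37.2 CPM in WT-DMXAA, 9.34 and 11.6 CPM in KO-DMSO and 15.59 and 8.78 CPM in KO-DMXAA (log2 fold change 0.65, SE 0.24, edgeR adjusted p = 0.324). Its KO libraries lay below all 4 WT libraries. Isg20, an exonuclease of single-stranded RNA, was at 84.1 and 83.5 CPM in the WT-DMSO libraries, 108 and 107 CPM in WT-DMXAA, 112 and 92.8 CPM in KO-DMSO and 94.3 and 97.7 CPM in KO-DMXAA (log2 fold change 0.36, SE 0.14, edgeR adjusted p = 0.37). The highest library for Isg20 was a KO-DMSO library. Pnpt1, a mitochondrial polynucleotide phosphorylase, was at 33.6 and 28.04 CPM in the WT-DMSO libraries, 28.4 and 34.2 CPM in WT-DMXAA, 23.5 and 29.6 CPM in KO-DMSO and 28.5 and 20.2 CPM in KO-DMXAA, with overlapping groups (log2 fold change 0.02, SE 0.20, edgeR adjusted p = 0.979).

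Nuclear body and chromatin genes rose in all 6 cases tested, with a median log2 fold change of 1.89. Daxx (chromosome 17, 33909414 to 33915590), a histone chaperone of PML bodies, was at 25.7 and 28.04 CPM in the WT-DMSO libraries, 57.3 and 57.3 CPM in WT-DMXAA, 27.4 and 28.1 CPM in KO-DMSO and 27.5 and 29.7 CPM in KO-DMXAA. Its WT-DMXAA libraries were level with each other and apart from the rest (log2 fold change 1.09, SE 0.15, edgeR adjusted p = 0.00091). Sp110, an interferon-induced nuclear body protein, was at 0.894 and 0.295 CPM in the WT-DMSO libraries, 5.38 and 4.11 CPM in WT-DMXAA, 1.53 and 1.36 CPM in KO-DMSO and 1.02 and 0.936 CPM in KO-DMXAA. Its estimate was 3.00 (SE 0.44, edgeR adjusted p = 0.00189), from 17 and 6 counts with DMSO to 100 and 79 counts with DMXAA. The call held in the fits without 1 library, but the estimate was 3.99 without WT-DMSO replicate 1 and 2.40 without WT-DMSO replicate 2. Phf11d, a PHD finger protein of the Phf11 cluster on chromosome 14, was at 3.52 and 3.64 CPM in the WT-DMSO libraries, 12.9 and 18.4 CPM in WT-DMXAA, 3.20 and 1.93 CPM in KO-DMSO and 5.08 and 2.63 CPM in KO-DMXAA. It rose by 2.12 (adjusted p = 0.00224) with no overlap between the groups.

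Sp100, which anchors nuclear bodies together with PML, went from 3.61 ± 1.07 CPM to 12.8 ± 2.54 CPM (mean ± SD, n = 2; log2 fold change 1.83, edgeR adjusted p = 0.00283). Pml itself, the scaffold of these bodies, went from 32.5 ± 2.02 to 59.5 ± 1.83 CPM (log2 fold change 0.87, adjusted p = 0.00535), a call lost without WT-DMXAA replicate 1 or 2 (0.0587 and 0.0944). Phf11b went from 0.813 ± 0.0335 to 3.15 ± 0.188 CPM (log2 fold change 1.94, adjusted p = 0.0452). That call was lost without WT-DMSO replicate 1 or 2 (0.296 and 0.0672), WT-DMXAA replicate 1 or 2 (0.245 and 0.179) or KO-DMSO replicate 1 or 2 (0.0545 and 0.0566). It was also lost with limma-voom (0.0842), the older form of the fit (0.085), the filter of at least 1 CPM in at least 4 libraries (0.0563), the replicate block (0.0585) and the 4 WT libraries alone (0.0697). Phf11a, whose stretch above differs from that of Phf11b at 1 base and which was not tested, had 2 and 6 counts in the WT-DMSO libraries, 7 and 10 in WT-DMXAA, 7 and 1 in KO-DMSO and 0 and 5 in KO-DMXAA. Reads of the Phf11 genes, and of Sp100 and Sp110 with their relatives on chromosome 1, may be split between copies, so levels of single copies are uncertain.

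Of 7 restriction factor genes 6 rose, with a median log2 fold change of 2.19. Rtp4 (chromosome 16, 23520291 to 23614222), a chaperone of taste and opioid receptors that also restricts flaviviruses, was at 11.8 and 12.5 CPM in the WT-DMSO libraries, 48.0 and 63.4 CPM in WT-DMXAA, 8.27 and 7.42 CPM in KO-DMSO and 13.9 and 7.72 CPM in KO-DMXAA. The WT-DMXAA libraries held the highest levels by a wide margin (log2 fold change 2.19, SE 0.24, edgeR adjusted p = 0.00015). Samd9l, a translation-controlling restriction factor of poxviruses, was at 46.0 and 38.8 CPM in the WT-DMSO libraries, 102 and 125 CPM in WT-DMXAA, 36.5 and 33.1 CPM in KO-DMSO and 38.6 and 25.3 CPM in KO-DMXAA. It rose by 1.42 (edgeR adjusted p = 0.00113), and none of the other 6 libraries was above 46.0 CPM. Ifi44, an interferon-induced protein with antiviral activity, was at 3.94 and 4.28 CPM in the WT-DMSO libraries, 13.5 and 24.4 CPM in WT-DMXAA, 2.87 and 1.42 CPM in KO-DMSO and 3.53 and 2.22 CPM in KO-DMXAA. It rose by 2.20 (adjusted p = 0.00236), although its DMXAA libraries differed from each other, and the call was lost without WT-DMSO replicate 1 (0.0586).

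Apol9a and Apol9b, near-identical apolipoprotein L genes, both rose. Apol9a had means of 0.611 ± 0.0289 CPM in WT-DMSO and 4.29 ± 1.58 CPM in WT-DMXAA (log2 fold change 2.80, SE 0.47, edgeR adjusted p = 0.00552) and Apol9b means of 0.530 ± 0.155 and 3.19 ± 0.559 CPM (log2 fold change 2.57, SE 0.57, edgeR adjusted p = 0.0417). Their reads could be split between the copies, their counts in the other 6 libraries were at most 21, and both carry the doubled motif printed above, before their RefSeq starts. The Apol9a call was lost without WT-DMSO replicate 1 (0.0691) or WT-DMXAA replicate 2 (0.0881), and the Apol9b call without WT-DMSO replicate 1 or 2 (0.364 and 0.0563) or WT-DMXAA replicate 1 or 2 (0.0958 and 0.253). The Apol9b call was also lost with limma-voom (0.0912), the older form of the fit (0.128) and the filter of at least 1 CPM in at least 4 libraries (0.0605). Samhd1, the hydrolase that depletes deoxynucleotides, had means of 32.1 ± 2.40 CPM in WT-DMSO and 55.2 ± 3.54 CPM in WT-DMXAA (log2 fold change 0.78, SE 0.16, edgeR adjusted p = 0.0186), a call lost without WT-DMSO replicate 1 (0.139) or WT-DMXAA replicate 1 or 2 (0.103 and 0.248). Tdrd7, a Tudor domain protein that restricts viral replication, was at 44.7 and 49.5 CPM in the WT-DMSO libraries, 55.1 and 56.3 CPM in WT-DMXAA, 39.1 and 42.6 CPM in KO-DMSO and 42.6 and 47.2 CPM in KO-DMXAA. It did not pass the test (log2 fold change 0.24, SE 0.14, edgeR adjusted p = 0.518), though its WT-DMXAA libraries were the highest 2.

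Among genes of cell death and small membrane proteins, 1 of 4 rose. Xaf1, which antagonises the apoptosis inhibitor XIAP, was at 16.5 and 14.6 CPM in the WT-DMSO libraries, 30.4 and 43.9 CPM in WT-DMXAA, 11.3 and 9.06 CPM in KO-DMSO and 12.3 and 7.84 CPM in KO-DMXAA. Its WT-DMXAA libraries were above the rest (log2 fold change 1.26, SE 0.24, edgeR adjusted p = 0.0128), and the call was lost without WT-DMSO replicate 1 (0.0866) or WT-DMXAA replicate 2 (0.223). Shisa5, an endoplasmic reticulum protein of p53-dependent apoptosis, was at 94.1 and 89.3 CPM in the WT-DMSO libraries, 104 and 131 CPM in WT-DMXAA, 93.9 and 71.5 CPM in KO-DMSO and 80.9 and 107 CPM in KO-DMXAA (log2 fold change 0.36, SE 0.18, edgeR adjusted p = 0.45). One WT-DMXAA library lay within the range of the KO ones. Ifi27, a small hydrophobic protein of mitochondria, was at 114 and 103 CPM in the WT-DMSO libraries, 113 and 156 CPM in WT-DMXAA, 85.8 and 63.2 CPM in KO-DMSO and 84.5 and 74.1 CPM in KO-DMXAA (log2 fold change 0.31, SE 0.19, edgeR adjusted p = 0.52). All 4 KO libraries of Ifi27 lay below all 4 WT libraries. Its relative Ifi27l2a had 30 and 8 counts in the WT-DMSO libraries, 22 and 42 in WT-DMXAA, 22 and 19 in KO-DMSO and 21 and 23 in KO-DMXAA (log2 fold change 0.80, SE 0.56, edgeR adjusted p = 0.577), with groups that overlapped.

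Signalling partners and ubiquitin ligases rose in 3 of 6 cases. Ogfr, the receptor of opioid growth factor, was at 35.5 and 43.9 CPM in the WT-DMSO libraries, 66.3 and 69.9 CPM in WT-DMXAA, 52.3 and 48.8 CPM in KO-DMSO and 47.2 and 57.6 CPM in KO-DMXAA. It rose by 0.78 (edgeR adjusted p = 0.0242) with all other libraries lower, a call lost without WT-DMSO replicate 1 (0.174), WT-DMXAA replicate 1 or 2 (0.148 and 0.237) or KO-DMSO replicate 1 or 2 (0.0597 and 0.0605). Ifi35, a partner of Nmi, was at 11.3 and 16.8 CPM in the WT-DMSO libraries, 25.2 and 30.0 CPM in WT-DMXAA, 16.8 and 18.1 CPM in KO-DMSO and 16.4 and 14.6 CPM in KO-DMXAA. It rose by 0.97 (adjusted p = 0.0295), and its call was lost without WT-DMSO replicate 1 (0.263), WT-DMXAA replicate 1 or 2 (0.081 and 0.315) or KO-DMSO replicate 1 or 2 (0.0684 and 0.07). Rnf213, a giant ubiquitin ligase of the antimicrobial response, was at 80.0 and 87.0 CPM in the WT-DMSO libraries, 201 and 218 CPM in WT-DMXAA, 57.6 and 43.4 CPM in KO-DMSO and 70.0 and 35.8 CPM in KO-DMXAA. It rose by 1.33 (adjusted p = 0.0313), with its call lost without WT-DMSO replicate 1 or 2 (0.55 and 0.0788) or WT-DMXAA replicate 1 or 2 (0.0809 and 0.137), and with no filter on low counts (0.192). The KO libraries of Rnf213 were all below the WT ones, under DMSO too.

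The other 3 genes of that group did not pass. Nmi, which binds STAT proteins and Ifi35, was at 14.9 and 13.8 CPM in the WT-DMSO libraries, 18.7 and 23.8 CPM in WT-DMXAA, 14.6 and 15.5 CPM in KO-DMSO and 14.1 and 15.7 CPM in KO-DMXAA (log2 fold change 0.57, SE 0.19, edgeR adjusted p = 0.259). The WT-DMXAA libraries of Nmi were still the highest 2. Rnf114, a ubiquitin ligase, was at 59.0 and 60.3 CPM in the WT-DMSO libraries, 72.1 and 73.7 CPM in WT-DMXAA, 68.3 and 66.5 CPM in KO-DMSO and 65.6 and 73.8 CPM in KO-DMXAA (log2 fold change 0.29, SE 0.14, edgeR adjusted p = 0.434). The highest Rnf114 value came from a KO-DMXAA library. Epsti1, an interferon-responsive gene of epithelium and macrophages, was at 4.73 and 2.90 CPM in the WT-DMSO libraries, 1.78 and 3.02 CPM in WT-DMXAA, 2.60 and 1.93 CPM in KO-DMSO and 1.74 and 2.40 CPM in KO-DMXAA. It had the lowest estimate of the 38 genes (log2 fold change -0.66, SE 0.37, edgeR adjusted p = 0.498), with 1 DMXAA library inside the DMSO range.

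Of the 4 genes for secreted and surface proteins, Lgals9 alone rose. Lgals9 encodes galectin-9, a lectin that binds TIM-3, and was at 10.9 and 6.15 CPM in the WT-DMSO libraries, 18.8 and 26.5 CPM in WT-DMXAA, 7.14 and 7.53 CPM in KO-DMSO and 9.49 and 10.4 CPM in KO-DMXAA. It rose by 1.42 (edgeR adjusted p = 0.0112), a call lost without WT-DMXAA replicate 2 (0.179). Lgals3bp, a secreted glycoprotein that binds galectins, was at 666 and 634 CPM in the WT-DMSO libraries, 768 and 857 CPM in WT-DMXAA, 638 and 575 CPM in KO-DMSO and 699 and 778 CPM in KO-DMXAA. Per kilobase of exon it had the highest mean level of the 39 genes, 228 CPM per kb in WT-DMSO libraries, against 74.1 for Ifi27, 48.7 for Ly6e and 45.1 for Isg20, and 0.103 for Apol9a and 0.0877 for Sp110 at the other end. One KO-DMXAA library was above the lower WT-DMXAA library for Lgals3bp, and its fold change did not pass (log2 fold change 0.32, SE 0.15, edgeR adjusted p = 0.437).

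Ly6e, a membrane-anchored inhibitor of coronavirus entry, was at 211 and 157 CPM in the WT-DMSO libraries, 199 and 245 CPM in WT-DMXAA, 176 and 179 CPM in KO-DMSO and 165 and 202 CPM in KO-DMXAA, with overlapping WT groups (log2 fold change 0.27, SE 0.18, edgeR adjusted p = 0.551). Ms4a4c, a surface protein of leukocytes, had 29 and 10 counts in the WT-DMSO libraries, 18 and 33 in WT-DMXAA, 24 and 33 in KO-DMSO and 18 and 15 in KO-DMXAA (log2 fold change 0.44, SE 0.53, edgeR adjusted p = 0.766). Its WT libraries overlapped, and the sign of its estimate changed without WT-DMSO replicate 2 (-0.18) or WT-DMXAA replicate 2 (-0.04). Lymphocyte markers summed to 36.0 and 8.86 CPM in WT-DMSO and 11.1 and 11.7 CPM in WT-DMXAA libraries, and to 91.0 and 71.7 CPM in KO-DMSO and 11.4 and 15.3 CPM in KO-DMXAA libraries. Both the marker sum and the Ms4a4c counts were higher in the 2 KO-DMSO libraries than in the 2 KO-DMXAA libraries. The part of these cells in the Ms4a4c values was not tested.

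In the smallest group, enzymes and membrane traffic genes, 1 of 3 rose. Tor3a, an ATPase of the endoplasmic reticulum, was at 79.6 and 84.7 CPM in the WT-DMSO libraries, 132 and 127 CPM in WT-DMXAA, 91.8 and 91.4 CPM in KO-DMSO and 82.6 and 93.3 CPM in KO-DMXAA. It rose by 0.66 (edgeR adjusted p = 0.028), a call lost without WT-DMSO replicate 1 (0.118), WT-DMXAA replicate 1 or 2 (0.309 and 0.204) or KO-DMSO replicate 1 or 2 (0.0817 and 0.0828). Mitd1, which acts in the last step of cell division, was at 14.5 and 14.6 CPM in the WT-DMSO libraries, 18.8 and 20.7 CPM in WT-DMXAA, 12.8 and 11.7 CPM in KO-DMSO and 12.3 and 8.25 CPM in KO-DMXAA (log2 fold change 0.44, SE 0.21, edgeR adjusted p = 0.421), with the WT-DMXAA libraries on top. Lap3, a leucine aminopeptidase, was at 43.0 and 35.0 CPM in the WT-DMSO libraries, 37.8 and 39.5 CPM in WT-DMXAA, 45.5 and 35.8 CPM in KO-DMSO and 34.1 and 46.0 CPM in KO-DMXAA, and its groups overlapped (log2 fold change -0.01, SE 0.19, edgeR adjusted p = 0.988).

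**Figure D3:**
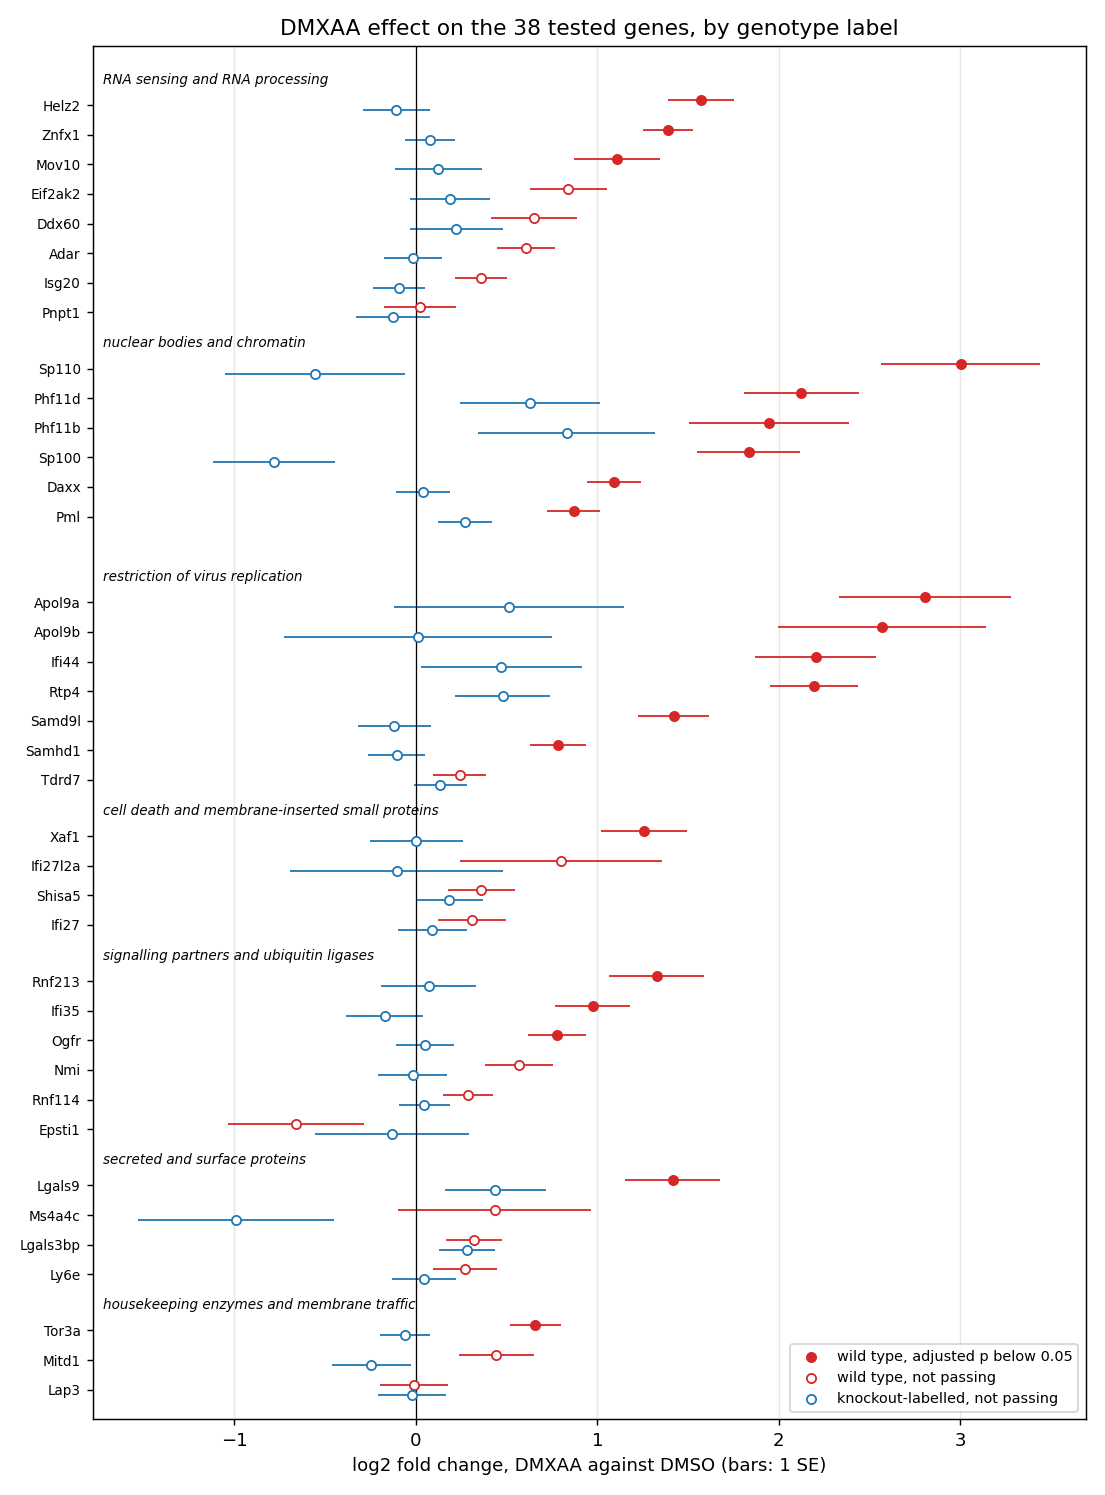
Log2 fold change of DMXAA against DMSO in WT (red) and KO (blue) islets for the 38 tested genes, with bars of 1 SE and filled points for an edgeR adjusted p below 0.05. There are 21 filled red points, from Tor3a at 0.66 to Sp110 at 3.00, and 0 filled blue points.

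The counts of genes that rose can be set beside their abundance at rest, as a description with no test. To avoid ranking by the libraries of the contrast, genes were ordered by their mean in the KO-DMSO libraries, in CPM. Of the 13 most abundant, between 40.9 and 606 CPM, 5 rose in WT islets, with a median log2 fold change of 0.36. In the middle 12, from 10.5 to 40.7 CPM, 6 rose, with a median of 0.81. Among the lowest 13, from 0.67 to 10.2 CPM, 10 rose, with a median of 1.94. The exceptions among the lowest were Ifi27l2a, Ms4a4c and Epsti1, and Znfx1, Helz2 and Rnf213 were the abundant genes with estimates above 1. Precision was lower for low genes, with an SE of 0.14 for Znfx1 against 0.57 for Apol9b. Over all genes tested 1.11% rose. The share and median of all genes at each of these levels were not computed. The gradient is thus not shown to be particular to these genes.

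**Figure D4:**
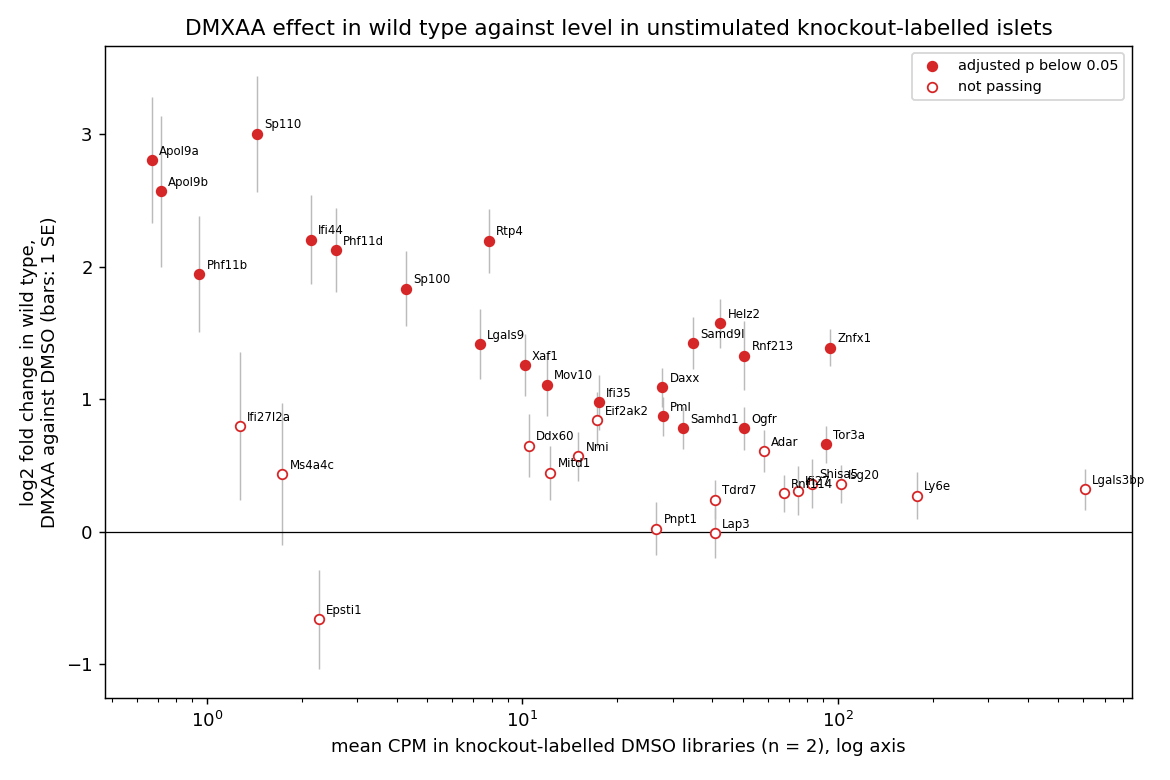
Log2 fold change with DMXAA in WT islets (vertical axis, bars of 1 SE) against mean CPM in KO-DMSO libraries (horizontal log axis, n = 2), 1 point per tested gene. The estimates of the 13 least abundant genes have a median of 1.94 and those of the 13 most abundant a median of 0.36. Medians of all genes at these levels were not computed.

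The interferon pathway that drives such genes was read from a list of 13 genes, of which 6 rose in WT islets (1.11% of all genes rose). Ifnb1, the interferon beta gene, had 0 and 0 counts in the WT-DMSO libraries, 536 and 261 in WT-DMXAA, 1 and 0 in KO-DMSO and 3 and 0 in KO-DMXAA. Of the ISGF3 genes, Stat2 was at 66.7 and 80.9 CPM in WT-DMSO and 169 and 196 CPM in WT-DMXAA libraries (log2 fold change 1.30, SE 0.20, edgeR adjusted p = 0.0028). Irf9 rose by 0.80, while the factor Irf7, itself interferon-induced, rose by 1.53. The feedback genes Socs1 and Usp18 rose by 2.99 and 1.50. The receptor genes Ifnar1 and Ifnar2, the kinase genes Jak1, Tyk2 and Tbk1, Irf3 and Sting1 did not pass, with estimates between -0.31 and 0.26. In KO islets 0 of the 13 passed. The difference of the effects passed for Stat2 and Socs1.

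A list of 34 genes of the large interferon-induced families can be set beside these values. That list was chosen with earlier results of these data known, so it is not an independent scale. In the same WT comparison 31 of those 34 rose, with a median log2 fold change of 2.35, against 21 of 38 and 0.82 here. Their sum went from 568 and 559 CPM to 4890.1 and 5199 CPM. The ratio of group means, DMXAA to DMSO, was 8.95 for that sum and 1.57 for the sum over the 39 genes. The mean sum over the 39 genes in WT-DMSO was 1990 CPM. Lgals3bp, which did not pass, made up 650 CPM of it. In KO islets 0 of the 34 passed, with a median of 0.25. The difference between the lists was not tested.

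Of the markers of other cell types, only endothelial ones passed in the WT comparison. Endothelial markers reached 930.2 and 1184 CPM in WT-DMSO and 741 and 767 CPM in WT-DMXAA, and 3 of 14 fell. Macrophage markers summed to 160.1 and 146 CPM against 131 and 131 CPM, with 0 of 13 called, and fibroblast markers to 429.7 and 291 CPM against 164 and 296 CPM, with 0 of 12 called. Acinar markers summed to 7203 and 1461 CPM against 1642 and 3116 CPM, with 0 of 17 called. None of these 4 sums was higher in both DMXAA libraries than in both DMSO libraries, and the part of these cells in the results was not tested.

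The second question was whether DMXAA moved these genes in KO islets. None of the 38 passed there by edgeR, where 0.164% of all genes rose and 0.211% fell, or by DESeq2, which called 154 of all genes. With limma-voom 0 of all genes passed there, so its 0 says nothing about these genes. By edgeR and DESeq2 too few of all genes passed for a 0 among 38 to set these genes apart. The median log2 fold change was 0.04, against -0.00058 over all genes. An unadjusted edgeR p under 0.05 was found for 1245 of all 17055 genes and for 1 of the 38. That gene, named after its value was seen, was Sp100, with 5.001 and 3.57 CPM in KO-DMSO and 2.32 and 2.63 CPM in KO-DMXAA (log2 fold change -0.78, SE 0.34, edgeR adjusted p = 0.632). Both DMXAA libraries were above both DMSO libraries for 5 of the 38 genes (18.1% of all genes) and below them for 4 (17.7%), and the other 29 overlapped. The sum over the 39 genes was 1939.9 and 1776 CPM in KO-DMSO and 1985 and 2052 CPM in KO-DMXAA. In these libraries all 14 endothelial and all 13 tested macrophage markers had positive estimates, with medians of 0.66 and 0.36, and 2 and 0 of them passed. All 17 tested acinar markers had negative estimates, with a median of -2.77 and 0 passing, and 3 of 8 lymphocyte markers fell. The part of these cells in the member values was not tested.

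Whether the DMXAA effect differed between the genotypes was then tested directly, as KO minus WT. It passed for 7 of the 38 genes, all with a more negative effect in KO islets, against 0.528% of all genes in that direction and 0.668% in the other. The median difference was -0.89 on the log2 scale, against -0.0020 over all genes. An unadjusted edgeR p under 0.05 was found for 24 of the 38 and for 1485 of all 17055 genes. Znfx1 differed by -1.31 (SE 0.20, edgeR adjusted p = 0.00349) and passed in all 8 fits that left out a library. Helz2 differed by -1.68 (SE 0.26, edgeR adjusted p = 0.0045), lost without KO-DMSO replicate 1 (0.0524). The nuclear body genes Sp100, Sp110 and Daxx differed by -2.62 (SE 0.44, edgeR adjusted p = 0.00822), -3.56 (SE 0.68, edgeR adjusted p = 0.0181) and -1.05 (SE 0.21, edgeR adjusted p = 0.0236).

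Samd9l differed by -1.54 (SE 0.28, edgeR adjusted p = 0.0126) and Rtp4 by -1.72 (SE 0.35, edgeR adjusted p = 0.03). The Sp110 estimate was -4.54 without WT-DMSO replicate 1 and -2.95 without WT-DMSO replicate 2. The Sp100 call was lost without KO-DMSO replicate 1 (0.0813), the Sp110 call without WT-DMXAA replicate 1 (0.0745), KO-DMSO replicate 1 or 2 (0.136 and 0.125) or KO-DMXAA replicate 1 (0.0567) and the Daxx call without WT-DMXAA replicate 1 or 2 (0.161 and 0.12), KO-DMSO replicate 1 or 2 (0.14 and 0.185) or KO-DMXAA replicate 1 (0.052). The Samd9l call was lost without WT-DMXAA replicate 2 (0.0675) or KO-DMSO replicate 1 or 2 (0.108 and 0.0764), and the Rtp4 call without WT-DMSO replicate 1 or 2 (0.138 and 0.0631), WT-DMXAA replicate 2 (0.136), KO-DMSO replicate 1 or 2 (0.196 and 0.142) or KO-DMXAA replicate 2 (0.0507). The count of 7 was 1 without KO-DMSO replicate 1, 3 without KO-DMSO replicate 2 and 4 without WT-DMXAA replicate 2, and 11 with DESeq2. For the 14 other genes that rose in WT islets the difference did not pass, with estimates from -0.60 for Pml to -2.56 for Apol9b. With DESeq2 it passed for Tor3a (0.0395), Samhd1 (0.0353), Ifi35 (0.0388) and Rnf213 (0.0209), and with no filter on low counts for Xaf1 (0.048) and Ifi35 (0.0405). It also passed for Mov10 and Ifi35 without WT-DMSO replicate 2 (0.0354 and 0.0256) and for Rnf213 without KO-DMXAA replicate 1 (0.00425). Epsti1 was the only gene of the 38 with a positive estimate, 0.53 (SE 0.57, edgeR adjusted p = 0.834).

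The genotype labels were also compared within each treatment, in comparisons that share libraries with those above. Under DMSO none of the 38 passed by edgeR or limma-voom. By edgeR 0.182% of all genes were higher and 0.041% lower in KO islets. An unadjusted edgeR p under 0.05 was found for 9 of the 38 and for 2092 of all 17055 genes. Ddx60, the RIG-I cofactor, came nearest, at 9.34 and 11.6 against 22.3 and 20.1 CPM (log2 fold change -1.01, SE 0.25, edgeR adjusted p = 0.151). It passed with DESeq2 (adjusted p = 0.0268) and without KO-DMXAA replicate 1 or 2 (0.0461 and 0.0476). Rnf213 was at 57.6 and 43.4 against 80.0 and 87.0 CPM and Ifi27 at 85.8 and 63.2 against 114 and 103 CPM, with adjusted p = 0.326 and 0.287. Both KO libraries were below both WT libraries for 14 of the 38 genes (22.4% of all genes) and above them for 7 (24.3%). In this comparison all 8 tested lymphocyte markers had positive estimates (median 2.72, with 2 passing), 11 of 12 fibroblast markers negative ones (median -0.98, with 1 passing) and all 17 tested acinar markers negative ones (median -0.93, with 0 passing). The part of these cells in the member values was not tested.

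Under DMXAA 18 of the 38 were lower in KO islets and 0 higher, where 1.37% of all genes were lower and 1.02% higher. The median was -0.84, against 0.035 over all genes, and both libraries were lower for 30 of the 38 (21% of all genes). Of the 18, 15 had also risen with DMXAA in WT islets, in a comparison that uses the same WT-DMXAA libraries. The other 3 were Eif2ak2 at -1.03 (SE 0.21, edgeR adjusted p = 0.0185), Ddx60 at -1.44 (SE 0.24, edgeR adjusted p = 0.00451) and Mitd1 at -0.94 (SE 0.21, edgeR adjusted p = 0.0329). Under DMSO the estimates of these 3, in that order, were already negative, at -0.38, -1.01 and -0.25, with none passing by edgeR. The difference of their DMXAA effects did not pass, at -0.65, -0.43 and -0.69 (edgeR adjusted p = 0.573, 0.775 and 0.525). The Eif2ak2 call was lost without WT-DMXAA replicate 2 (0.19) or KO-DMXAA replicate 2 (0.141), the Ddx60 call without WT-DMXAA replicate 2 (0.0524) and the Mitd1 call without WT-DMXAA replicate 1 or 2 (0.149 and 0.212), KO-DMSO replicate 1 or 2 (0.0728 and 0.0729) or KO-DMXAA replicate 2 (0.194). With the 4 DMXAA libraries fitted alone, Eif2ak2 (0.0953) and Mitd1 (0.121) did not pass. Of the 15, Lgals9, Apol9a, Sp110, Pml and Samhd1 each lost the call in at least 1 fit without a library. Adar, Ifi27, Tor3a, Ifi35 and Apol9b lay just above the threshold, with edgeR adjusted p from 0.0521 to 0.0546. Each of these passed with no filter on low counts. The count of 18 was 11 without WT-DMXAA replicate 2. Endothelial markers were higher in KO islets here for 9 of 14 genes, and their DMXAA effect differed from WT for 6 of 14, with the part of these cells in the member values not tested. The largest differences belonged to Ifi44 at -2.70 (SE 0.35, edgeR adjusted p = 0.000552) and Sp100 at -2.37 (SE 0.30, edgeR adjusted p = 0.000445), and their WT-DMXAA levels of 13.5 and 24.4 CPM and 11.0 and 14.6 CPM stood against 3.53 and 2.22 CPM and 2.32 and 2.63 CPM.

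The promoter motif and the response can be set side by side as counts. Among genes that rose in WT islets and have a window, 5 of 19 held the response-element core, namely Apol9a, Apol9b, Phf11b, Lgals9 and Ogfr. Among those that did not pass, 5 of 14 held it, namely Ddx60, Eif2ak2, Mitd1, Shisa5 and Tdrd7. For Shisa5 and Tdrd7 the match lay only in the window of a later start, and the window at the first start held none. Znfx1, Helz2, Sp100, Sp110, Daxx, Samd9l and Phf11d, which passed in all fits without a library, had no match to the core in their windows. That says nothing about binding elsewhere or to a variant of the motif.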

How the data were processed

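Each deposited file holds 1 raw count per Ensembl gene for 1 library. The submitters' processing notes name HISAT2, HTSeq and mm10 as aligner, counter and build. Tool versions, strand setting and annotation release are not given in the sources used. GENCODE M21, on the same build, gave symbols and coordinates for 54495 of 54532 identifiers. Sting1 carries an older symbol there.

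Counts were analysed with edgeR 4.0.16 (limma 3.58.1, DESeq2 1.42.0, R 4.3.3). Genes were filtered with filterByExpr, scaled by TMM and fitted with 1 coefficient per group over all 8 libraries (4 residual degrees of freedom, biological coefficient of variation 17.1%), with the quasi-likelihood F-test (legacy=FALSE, robust). Adjusted p-values under 0.05 over all 17055 genes counted as passing. SE was taken as |log2 fold change|/√F. The fit was tested on simulated counts.

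Members and lists were chosen with earlier results of these data known. Values in every library are given for up to 3 genes per role with the smallest p in the WT contrast and for genes of at least 1 CPM that did not pass it; other genes are given as means or counts. Within groups, libraries differed by more than sampling noise (chi-square per degree of freedom 6.83 to 53.8), so none was a copy. Alternatives were DESeq2, limma-voom, the older form of the fit, RLE scaling, other filters, fits of the compared libraries alone, a replicate block and leaving out each library. One gene planned for the pathway list, and 1 of the motifs searched, are not reported here.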

Additional observations from a re-analysis of the deposited data

Results flagged for a closer look

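By the test of the difference itself, the DMXAA effect differed between the genotype labels for 7 of the 38 genes. All 7 were more negative in KO islets, against 0.528% of all genes in that direction. Values are given as KO minus wild type on the log2 scale. The genes were Sp110 at -3.56, with -4.54 to -2.95 when 1 library was left out, and Sp100 at -2.62. Rtp4 was at -1.72, Helz2 at -1.68, Samd9l at -1.54, Znfx1 at -1.31 and Daxx at -1.05. Only the Znfx1 call held in every fit that left out a library.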

How the results depend on the processing

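The count of 21 genes raised in WT islets lay between 14 and 23 under the 8 other settings, with 14 when only the 4 libraries compared were fitted, and from 9 to 23 when 1 library was left out. The count of 0 in KO islets was 0 under the 8 other settings. With limma-voom and with the filter of at least 1 CPM in at least 4 libraries, 0 of all genes passed there. The 0 for these genes was thus fixed in advance under those settings. The count of 7 for the difference between effects was 11 with DESeq2, 7 to 9 under the other settings and from 1 to 8 without 1 library. The count of 0 for genotype under DMSO was 1 with DESeq2, 1 with no filter on low counts and 0 to 1 without 1 library, in each case Ddx60. The count of 18 for genotype under DMXAA lay between 16 and 23 and, without 1 library, between 11 and 22. The cause of these moves was not tested.

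Signs changed only for estimates that did not pass. In the WT comparison Lap3 was 0.00693 with no filter and ranged from -0.15 to 0.16 without 1 library, Pnpt1 from -0.12 to 0.17 and Ms4a4c from -0.18 to 1.46. For the difference between effects the ranges were -0.41 to 0.083 for Pnpt1, -0.43 to 0.033 for Ifi27, -0.38 to 0.018 for Shisa5, -0.12 to 0.046 for Lgals3bp and -0.23 to 0.19 for Lap3.

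The replicate number as a block gave 20, 0, 7, 0 and 18 calls for the 5 comparisons in the order above, with Phf11b the WT call lost. Correlations of same-numbered deviations between groups lay between -0.14 and 0.13. Such weak values cannot exclude a shared day or shared mice, and the labels do not say what the numbers mean. The libraries were treated as unpaired in the main fit. With 1 count worth at least 0.0484 CPM, changes of Phf11a, Apol9a, Apol9b, Sp110, Ifi27l2a and Ms4a4c rest on few reads.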
